A study of Mus musculus with 5 samples.

Results

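The Ifit family is a cluster of interferon-stimulated genes on mouse chromosome 19. The 4 members described here, Ifit1, Ifit2, Ifit3 and Ifit3b, were taken by their symbols from the feature tables, which list 32285 genes, and all 4 were found. They were measured by 10x Genomics 3′ single-cell RNA-seq of spleen in C57/BL6 mice, 48 hours after an intravenous infusion, with 1 library for each of 5 groups. The control mice received saline. The live allogeneic group received live splenic cells of Balbc mice, a strain with other transplantation antigens than the host, and the live isogeneic group received live splenic cells of B6 mice, the host's own strain. The apoptotic allogeneic and apoptotic isogeneic groups received apoptotic splenic cells of the same 2 sources. Within each group, cells enriched for the leukocyte marker CD45 and cells enriched for dendritic cells were pooled in equal parts, so shares of cell types reflect that enrichment. The age and sex of the mice and the number of mice behind a library are not given in the sources used here. Whether a cell came from the host or from the infused cells was not determined here.

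Ifit proteins are built of tetratricopeptide repeats and bind RNA. Type I interferon acts through the receptor chains IFNAR1 and IFNAR2 and the kinases JAK1 and TYK2 to activate transcription factors, STAT2 and IRF9 among them, that act at the interferon-stimulated response element (ISRE) in promoters, those of Ifit genes among them. Ifit1 recognises RNA whose cap lacks the methylation marks of host mRNA, Ifit2 restrains viral replication and can promote apoptosis, and Ifit3 is a binding partner of other Ifit proteins. Ifit3b is a near copy of Ifit3. Dendritic cells take up foreign and dying cells and present their antigens to T cells, and interferon signalling is among the inputs that change their state.

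The members lie within 99316 bases of chromosome 19 (GRCm38), all on the plus strand and all protein coding. Ifit2 (ENSMUSG00000045932) spans chr19:34550694-34576419 with 4 exons, Ifit3 (ENSMUSG00000074896) chr19:34583531-34588731 with 2 exons, Ifit3b (ENSMUSG00000062488) chr19:34607970-34613401 with 2 exons, and Ifit1 (ENSMUSG00000034459) chr19:34640871-34650009 with 2 exons. The related genes Ifit1bl1 and Ifit1bl2 lie between them on the minus strand. The 250 bases before the RefSeq start of Ifit1, Ifit3 and Ifit3b are shown because each holds 2 matches to the ISRE core. It was searched on both strands as GAAA, any 2 bases, and GAAA again. The sequences are from RefSeq for GRCm38.p6, plus strand, 5′ to 3′, and the capitals mark the matches, which lie on the other strand and so read TTTC, 2 bases, TTTC here. In order they cover chr19:34640639-34640888, chr19:34583279-34583528 and chr19:34607707-34607956. RefSeq starts differ from the starts of the gene spans above, so the Ifit1 window runs past the start of its span.
Ifit1: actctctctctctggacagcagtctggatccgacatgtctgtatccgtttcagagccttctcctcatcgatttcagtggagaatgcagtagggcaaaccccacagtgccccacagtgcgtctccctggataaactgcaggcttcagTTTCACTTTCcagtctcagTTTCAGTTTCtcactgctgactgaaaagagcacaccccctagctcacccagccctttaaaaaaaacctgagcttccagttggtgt
Ifit3: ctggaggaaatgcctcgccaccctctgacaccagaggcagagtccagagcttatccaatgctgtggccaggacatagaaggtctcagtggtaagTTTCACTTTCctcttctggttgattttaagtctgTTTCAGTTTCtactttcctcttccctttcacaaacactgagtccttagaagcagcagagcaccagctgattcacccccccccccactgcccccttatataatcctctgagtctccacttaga
Ifit3b: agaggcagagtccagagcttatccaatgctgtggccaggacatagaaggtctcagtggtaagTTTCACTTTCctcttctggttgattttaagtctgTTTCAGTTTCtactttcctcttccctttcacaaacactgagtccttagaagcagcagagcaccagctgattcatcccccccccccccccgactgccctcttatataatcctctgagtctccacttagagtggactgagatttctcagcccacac

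The matches lie 104 to 95 and 85 to 76 bases before the RefSeq start in Ifit1, 156 to 147 and 122 to 113 bases before it in Ifit3, and 188 to 179 and 154 to 145 bases before it in Ifit3b. All 3 genes carry the same pair of letters, TTTCACTTTC followed by TTTCAGTTTC. Of 32851 windows of this length before annotated starts, 978 (2.98%) held at least 1 match and 59 (0.180%) held 2. Neither of the 2 windows of Ifit2 held these letters, which says only that they are not in those windows. A match to TTCNNNGAA, the core of the gamma-activated site of type II interferon signalling, was found in 1 window of Ifit2, and 7.02% of all windows held one. The matches are descriptions of letters, not measured binding sites.

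The windows of Ifit3 and Ifit3b were 96.9% identical over 224 aligned columns, and their transcripts were 97.8% identical over 1700 columns, with an identical run of 329 bases. A short 3′ read can therefore fit both genes, and the split of UMIs between Ifit3 and Ifit3b is uncertain. The transcripts of Ifit1 and Ifit3 were 57.6% identical, so this uncertainty does not extend to that pair.

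A unique molecular identifier (UMI) counts a captured RNA molecule. Barcodes were kept as cells if they held 1000 or more UMIs from 500 or more genes, with mitochondrial UMIs no more than 10%. After called doublets were removed, this left 2896 cells of the saline library, 1185 of the live allogeneic and 3678 of the live isogeneic library. It left 2110 and 6263 of the apoptotic allogeneic and isogeneic libraries. Where 5 values follow each other below, they stand in this order of libraries. Total UMIs per library ranged from 12742889 to 32641733, and the median cell held between 2267 UMIs in the apoptotic isogeneic library and 4974 in the live allogeneic library. In all, 33 cell barcodes occurred in 2 or more libraries. The live isogeneic library stood apart in its content of the ribosomal RNA-related genes Gm42418 and AY036118, with 63194 counts for every 1000000 (CPM) in type 2 conventional dendritic cell (cDC2)-like cells against 14513 to 18902 in the other libraries. For that reason the live ratios of the family, allogeneic over isogeneic, are followed by the ratio to saline. Cells were clustered without the members and without the interferon gene lists, so that these genes did not set the classes, and the classes were named here from marker genes. Levels are UMIs of a gene in a class per 1000000 UMIs of that class, and intervals in parentheses are 95% Poisson intervals that cover counting error only. They treat each UMI as independent and leave out the spread between cells, although some sums rest on few cells. With 1 library per group there is no replicate spread and no test, and a difference between groups cannot be told apart from a difference between those libraries.

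Summed over all cells, the family held 621 UMIs (40.4 CPM) in the saline library, 1600 (152 CPM) in the live allogeneic, 905 (37.7 CPM) in the live isogeneic, 387 (24.9 CPM) in the apoptotic allogeneic and 885 (43.3 CPM) in the apoptotic isogeneic library. The live allogeneic library was highest and the apoptotic allogeneic library lowest. The live allogeneic level was 4.02-fold the live isogeneic level (3.70 to 4.36) and 3.75-fold the saline level (3.42 to 4.12). The direction was the opposite after apoptotic cells, where the allogeneic level was 0.575-fold the isogeneic level (0.509 to 0.649). These sums mix cell types whose shares differ between the libraries.

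Ifit1 stood at 10.1 CPM in saline, 35.5 in live allogeneic, 8.92 in live isogeneic, 5.60 in apoptotic allogeneic and 10.9 in apoptotic isogeneic cells. Ifit2 stood at 13.3, 32.2, 14.6, 9.40 and 12.3 CPM. Both were highest in the live allogeneic library and lowest in the apoptotic allogeneic library. Ifit3 stood at 13, 64.7, 11.2, 8.18 and 16.4 CPM, and Ifit3b at 4.03, 19.1, 3.0, 1.74 and 3.62 CPM. All 4 members were past 2-fold higher in live allogeneic than in live isogeneic cells, where 3.81% of genes with at least 20 UMIs were. All 4 were also past 2-fold higher than in saline, against 2.52% of genes. In the apoptotic pair 2 of 4, Ifit3 and Ifit3b, were past 2-fold lower in the allogeneic library, against 3.64% of genes.

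Among the neighbours of the cluster, Lipa, a lysosomal lipase gene on the Ifit2 side, stood at 89.1 CPM in saline, 62.3 in live allogeneic, 64.2 in live isogeneic, 91.3 in apoptotic allogeneic and 64.3 in apoptotic isogeneic cells. Its intervals overlapped in the live allogeneic (57.6 to 67.3), live isogeneic (61.1 to 67.5) and apoptotic isogeneic (60.9 to 67.9) libraries. Ch25h, an interferon-inducible cholesterol hydroxylase next to Lipa, had 5, 4, 1, 1 and 0 UMIs, too few for a comparison. Slc16a12, a transporter gene beyond Ifit1, had 4, 1, 3, 1 and 1 UMIs. Within the cluster, Ifit1bl1 stood at 8.06, 20.8, 6.46, 4.64 and 12.9 CPM, with a live allogeneic level 3.22-fold the live isogeneic level (2.61 to 3.99). Ifit1bl2 had 3 to 16 UMIs per library. Its upstream window reads the same 2 ISRE-core matches as that of Ifit1, from the other strand.

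**Figure D1:**
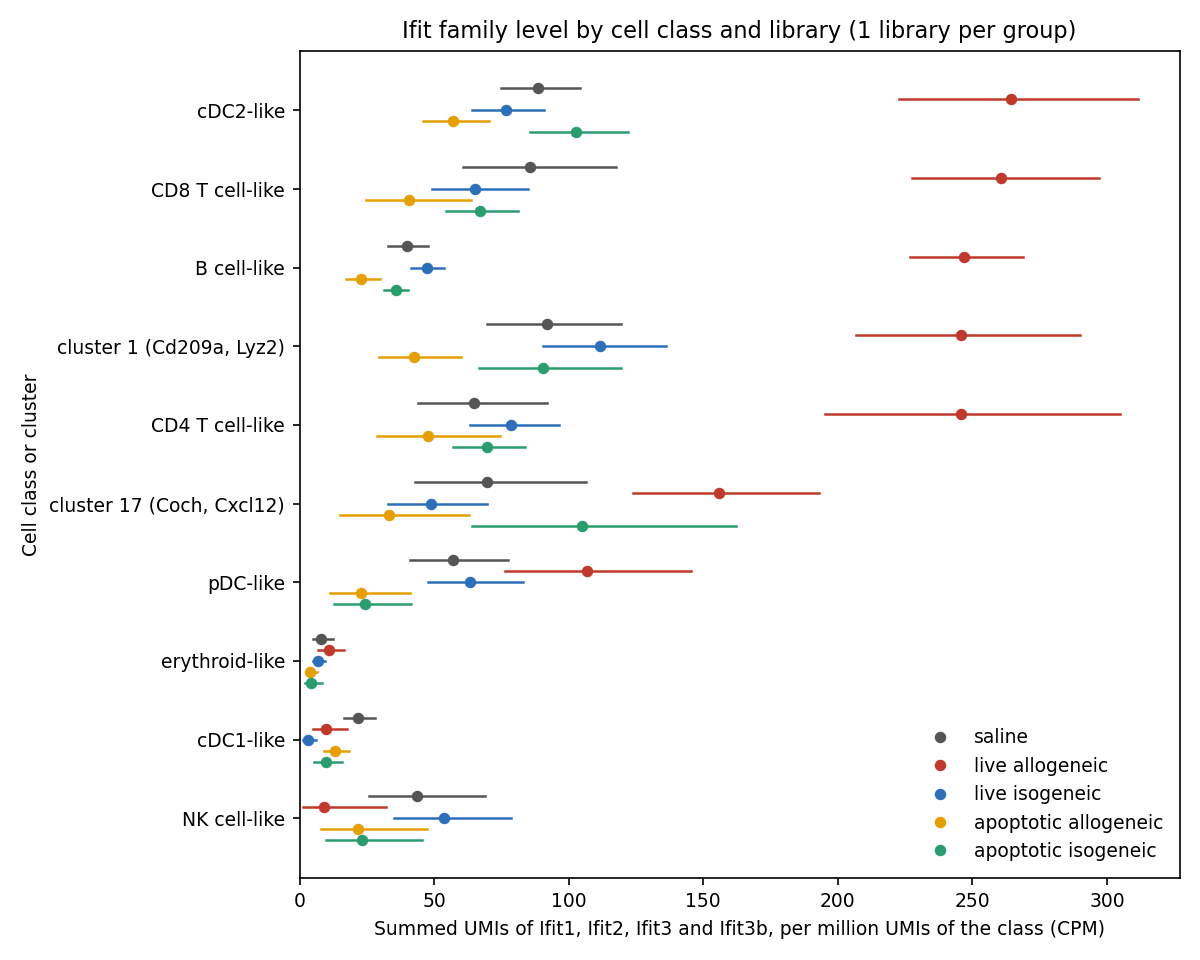
Summed level of Ifit1, Ifit2, Ifit3 and Ifit3b in each cell class (rows) and library (coloured points), in CPM on a linear axis, with 95% Poisson intervals as lines. Classes with at least 30 cells and 50000 UMIs in all 5 libraries are shown, and the live allogeneic point is the highest in cDC2-like, B cell-like and T cell-like cells but not in type 1 conventional dendritic cell (cDC1)-like or natural killer cell-like cells.

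Among classes with at least 30 cells in the live allogeneic library, 5 held the family at nearly the same level. These were cDC2-like cells at 264 CPM, CD8 T cell-like at 261, B cell-like at 247, CD4 T cell-like at 246, and an unnamed cluster led by Cd209a and Lyz2 (cluster 1) also at 246, and their intervals overlapped. A cluster led by Coch and Cxcl12 (cluster 17) followed at 156 CPM and plasmacytoid dendritic cell (pDC)-like cells at 107, and a cluster led by Nfkbid and Pclaf (cluster 5) was at 70.5. Erythroid-like cells at 10.8 CPM, cDC1-like cells at 9.89 and natural killer cell-like cells at 8.92 stood at the bottom of this order. Smaller classes reached higher levels in this library, among them neutrophil-like cells at 1406 CPM (18 cells), classical monocyte-like cells at 778 CPM (3 cells) and red pulp macrophage-like cells at 327 CPM (29 cells). In the saline library the highest level among classes with at least 30 cells was lower. Red pulp macrophage-like cells were at 113 CPM, cluster 1 at 92.0, cDC2-like cells at 88.4 and CD8 T cell-like cells at 85.7. No neighbouring classes in that order of 19 had separate intervals, but classes further apart did. The intervals were 74.7 to 104 CPM in cDC2-like, 32.7 to 47.8 in B cell-like and 16.5 to 27.9 in cDC1-like cells.

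Barcodes with fewer than 100 UMIs, taken as a reading of free RNA, gave a family level of 39.9 CPM (30.9 to 50.7) in saline, 106 (89.4 to 124) in live allogeneic, 30.6 in live isogeneic and 36.8 in apoptotic isogeneic. The apoptotic allogeneic file holds no such barcodes. The cDC1-like, natural killer cell-like and erythroid-like levels of the live allogeneic library were all below its free RNA level.

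The 1251 cDC2-like cells comprised 331, 72, 277, 249 and 322 cells by library, with median UMIs of 4963, 7676, 6422, 6274 and 3726. They were named from an 18-gene cDC2 marker list whose summed level was 3224, 2756, 2923, 2958 and 3041 CPM. Of its genes, Clec10a and Mgl2 were at 0 in all 5 libraries. The family held 146 UMIs (88.4 CPM, 74.7 to 104) in saline, 143 (264 CPM, 223 to 312) in live allogeneic, 133 (76.6 CPM, 64.1 to 90.7) in live isogeneic, 88 (57.2 CPM, 45.8 to 70.4) in apoptotic allogeneic and 128 (103 CPM, 85.7 to 122) in apoptotic isogeneic cells. The live allogeneic interval lay above those of all other libraries. The live allogeneic level was 3.45-fold the live isogeneic level (2.71 to 4.41) and 2.99-fold the saline level (2.36 to 3.79). With Gm42418, AY036118, Lars2 and the mitochondrial genes left out of the totals these ratios were 3.28 and 2.99. The live isogeneic level was 0.866-fold the saline level (0.679 to 1.10), an interval that includes 1.

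Ifit3, a partner of other Ifit proteins, held 60 UMIs (36.3 CPM) in saline cDC2-like cells, 64 (118 CPM) in live allogeneic, 49 (28.2 CPM) in live isogeneic, 32 (20.8 CPM) in apoptotic allogeneic and 53 (42.6 CPM) in apoptotic isogeneic cells. Its live allogeneic level was 4.20-fold the live isogeneic level (2.85 to 6.22). Ifit3b, its near copy, held 16, 24, 13, 9 and 20 UMIs (9.69, 44.4, 7.48, 5.85 and 16.1 CPM), with a live ratio of 5.93 (2.90 to 12.7). Both genes were highest in the live allogeneic and lowest in the apoptotic allogeneic library.

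Ifit1, the sensor of RNA with an unmethylated cap, held 32, 36, 39, 25 and 30 UMIs in cDC2-like cells (19.4, 66.6, 22.5, 16.2 and 24.1 CPM). Its live allogeneic level was 2.97-fold the live isogeneic level (1.83 to 4.79). Ifit2 held 38, 19, 32, 22 and 25 UMIs (23.0, 35.1, 18.4, 14.3 and 20.1 CPM). Its live ratio of 1.91 (1.02 to 3.47) was not past 2-fold, and its ratio to saline of 1.53 (0.831 to 2.71) had an interval that includes 1. Thus 3 of 4 members were past 2-fold higher in live allogeneic than in live isogeneic cDC2-like cells, against 2.59% of genes tested, and the same 3 against saline, where 3.06% of genes were.

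After apoptotic cells the family level of cDC2-like cells was 0.556-fold in the allogeneic compared with the isogeneic library (0.419 to 0.735). The apoptotic allogeneic level was also 0.646-fold the saline level (0.490 to 0.848), while the apoptotic isogeneic level was 1.16-fold it (0.909 to 1.48). Ifit3 at 0.488-fold (0.305 to 0.772) and Ifit3b at 0.364-fold (0.146 to 0.836) were the 2 of 4 members past 2-fold lower in the allogeneic library, against 1.58% of genes. The ratios of Ifit1, 0.674 (0.380 to 1.19), and of Ifit2, 0.712 (0.383 to 1.31), had intervals that include 1.

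Markers of other cell types were read in the same sums. A 10-gene classical monocyte list summed to 3132 CPM in saline, 4213 in live allogeneic, 3482 in live isogeneic, 3318 in apoptotic allogeneic and 3675 in apoptotic isogeneic cDC2-like cells, with its members Vcan and Chil3 at 0 in all 5. A neutrophil list summed to 15.1, 59.2, 26.5, 25.3 and 27.3 CPM, with S100a8 and S100a9 at 0 in the live allogeneic library. A B cell list was lowest in the live allogeneic library, at 311 CPM against 355 to 558. The classical monocyte and neutrophil sums were highest where the family was highest, and neutrophil-like and classical monocyte-like cells of that library held more Ifit RNA per UMI (1406 and 778 CPM) than cDC2-like cells (264 CPM). Their part in the result was not tested. A cluster of 84 of these cells (cluster 29), 46 of them live isogeneic, held Ifit UMIs in that library only. Without it the live ratio was 3.80 and the apoptotic ratio 0.550.

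**Figure D2:**
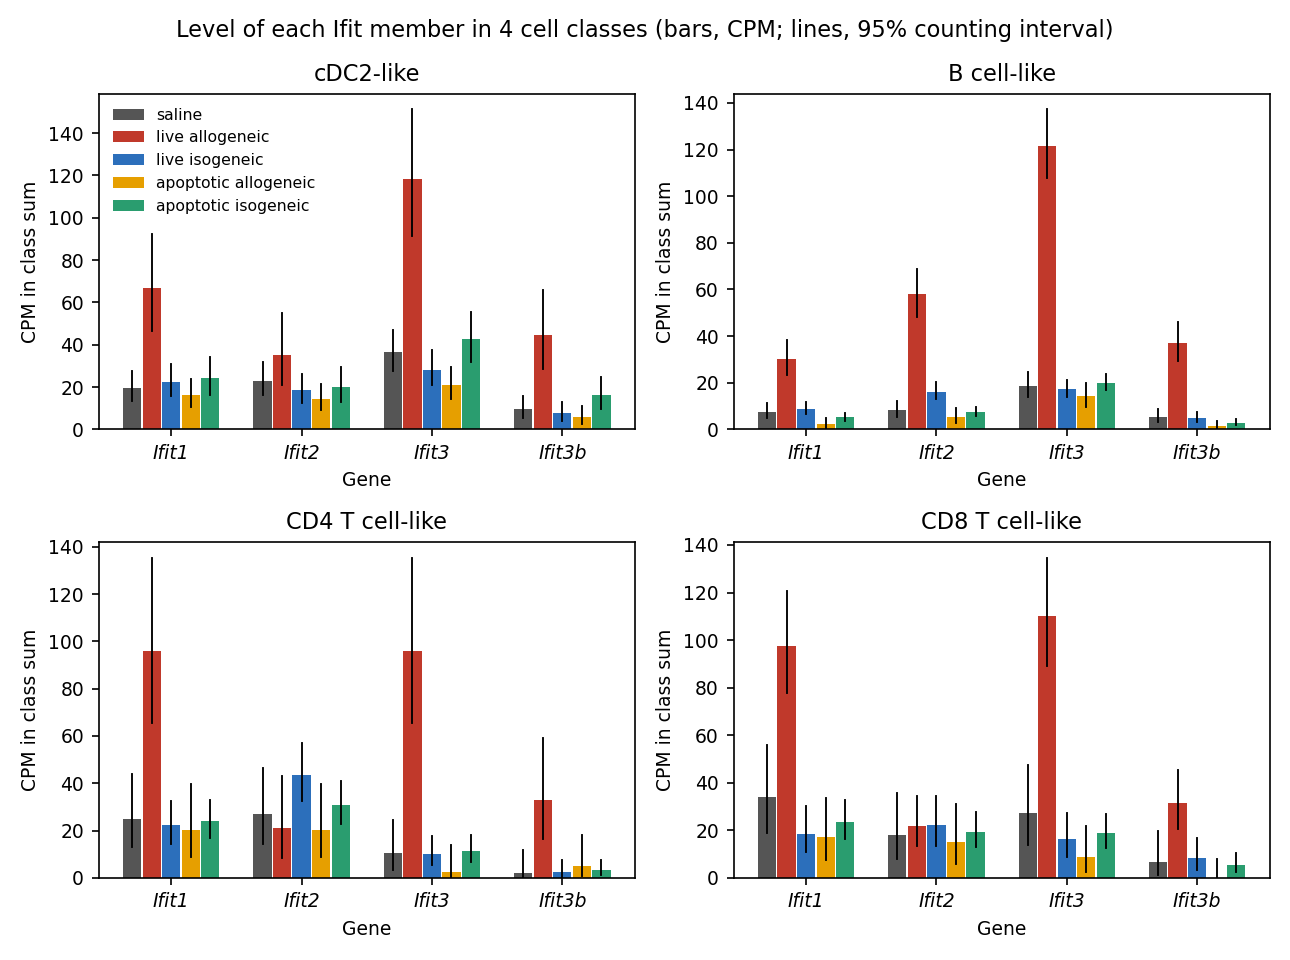
Level of each member in CPM (bars, with lines for 95% Poisson intervals) in the 5 libraries, with a panel each for cDC2-like, B cell-like, CD4 T cell-like and CD8 T cell-like cells. The bars of Ifit1, Ifit3 and Ifit3b are highest in the live allogeneic library in all 4 panels, whereas those of Ifit2 in T cell-like cells are not.

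The B cell-like class was the largest, with 1006, 475, 1369, 677 and 3313 cells by library. Its family level was 39.7, 247, 47.2, 22.8 and 35.7 CPM, from 111, 546, 230, 55 and 258 UMIs. The live allogeneic level was 5.24-fold the live isogeneic level (4.48 to 6.13) and 6.22-fold the saline level (5.06 to 7.70). Scaling by size factors in place of total UMIs moved all genes of this class by 0.22 and 0.24 on the log2 scale in these contrasts and gave 6.11-fold and 7.35-fold. After apoptotic cells the allogeneic level was 0.639-fold the isogeneic level (0.469 to 0.858).

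Different clusters held the largest part of the class in different libraries. Cluster 24 held 828 of the live isogeneic B cell-like cells, clusters 8 and 12 held 1128 and 1023 of the apoptotic isogeneic ones, and cluster 4, which expressed Cr2, Fcrl5 and S1pr3, held 208 of the live allogeneic ones. Within cluster 4 the family level was 81.6 CPM in saline, 306 in live allogeneic, 65.6 in live isogeneic, 22.8 in apoptotic allogeneic and 55.2 in apoptotic isogeneic cells. In cluster 2 it was 25.8, 199, 45.7, 14.4 and 37.7 CPM. The live allogeneic library was thus the highest, and the apoptotic allogeneic library the lowest, within both of these clusters. Levels within clusters 24, 8 and 12 are not given here, and the part of cluster make-up in the class ratios was not tested.

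Ifit3 was at 18.6, 122, 17.2, 14.1 and 20.1 CPM in B cell-like cells, with a live ratio of 7.06 (5.51 to 9.13). Ifit3b was at 5.37, 37.1, 4.92, 1.24 and 2.91 CPM, with a live ratio of 7.54 (4.73 to 12.4). These were the larger ratios of the family in this class. Ifit1 was at 7.51, 30.3, 8.82, 2.07 and 5.26 CPM, 3.44-fold (2.31 to 5.16) in the live pair. Ifit2 was at 8.23, 57.9, 16.2, 5.39 and 7.47 CPM, 3.57-fold (2.68 to 4.79) in the live pair. All 4 members were past 2-fold higher in live allogeneic B cell-like cells, against 1.70% of genes, and against 1.79% in the contrast with saline. Ifit1 and Ifit3b were past 2-fold lower in the apoptotic allogeneic than in the apoptotic isogeneic library, against 1.94% of genes, from 5 and 3 UMIs in the former, and both intervals include 1.

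In T cell-like cells the members differed. CD8 T cell-like cells held the family at 85.7, 261, 65.3, 40.7 and 66.8 CPM, and the live allogeneic level was 3.99-fold the live isogeneic level (2.97 to 5.45) and 3.04-fold the saline level (2.15 to 4.41). The apoptotic ratio was 0.609 (0.352 to 1.0006). Ifit1 was at 33.8, 97.3, 18.6, 17.1 and 23.4 CPM (5.22-fold in the live pair, 3.03 to 9.55). Ifit3 was at 27.1, 110.0, 16.3, 8.56 and 18.7 CPM (6.75-fold, 3.83 to 12.8). Ifit2, in contrast, was at 18.0, 22.0, 22.1, 14.98 and 19.4 CPM, a live ratio of 0.994 (0.498 to 1.98). In a single draw that thinned each cell to 1000 UMIs the Ifit2 ratio was 2.44, from 6 UMIs in each library of the pair, and it lay between 0.770 and 1.06 under the other alternatives run. Ifit3b had 3, 27, 7, 0 and 8 UMIs, a live ratio of 3.83 (1.63 to 10.4). Here 3 of 4 members were past 2-fold higher, but so were 12.8% of all genes, the highest background of the classes shown. Of the 62 live allogeneic cells of this class, 17 were in cluster 30, led by Trbc2, Zbtb32 and the replication factor gene Pclaf, which held 1 to 9 cells in each other library.

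CD4 T cell-like cells held the family at 64.7, 246, 78.4, 47.8 and 69.5 CPM, a live ratio of 3.13 (2.30 to 4.26). The live allogeneic level was 3.80-fold the saline level (2.48 to 5.94), and the apoptotic ratio was 0.687 (0.399 to 1.12). Ifit1 was at 25.04, 95.8, 22.2, 20.1 and 24.0 CPM, 4.32-fold in the live pair (2.50 to 7.55). Ifit3 was at 10.4, 95.8, 10.2, 2.51 and 11.4 CPM, 9.37-fold (4.70 to 19.97). Ifit2 was at 27.1, 21.0, 43.5, 20.1 and 31.0 CPM, with its highest level in the live isogeneic library and a live ratio of 0.482 (0.185 to 1.07). Of the 3 members with at least 20 UMIs, 2 were past 2-fold higher (4.03% of genes were) and 1, Ifit2, was past 2-fold lower (10.8% of genes were). Ifit3b had 1, 11, 3, 2 and 5 UMIs.

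The divergence of Ifit2 can also be given as its share of the family, computed from the same UMIs. Of the Ifit UMIs of CD8 T cell-like cells, Ifit2 held 8.44% in the live allogeneic library and 33.9% in the live isogeneic library. The CD4 T cell-like values were 8.54% and 55.4%. In cDC2-like cells they were 13.3% and 24.1%, and in B cell-like cells 23.4% and 34.3%. Over all cells Ifit3 made up 42.7% of the family in the live allogeneic library (exact binomial 95% interval 40.2 to 45.2) and 29.6% to 38.0% in the others, and Ifit2 21.3% (19.3 to 23.3) against 28.5% to 38.8%. The share of Ifit1 was between 22.5% and 25.2% in all 5 libraries.

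Among the other dendritic cells, cluster 1 expressed 8 of the 18 cDC2 markers together with Lyz2 and Cx3cr1 and stayed unnamed. Its family level was 92.0, 246, 112, 42.6 and 90.3 CPM, a live ratio of 2.20 (1.69 to 2.88), a ratio of 2.67 to saline (1.94 to 3.71) and an apoptotic ratio of 0.472 (0.294 to 0.749). Ifit3 had the clearest difference, at 36.2, 112, 34.5, 9.04 and 29.5 CPM, 3.25-fold in the live pair (2.08 to 5.20). The live ratio of Ifit1 was 1.34 (0.722 to 2.48), with an interval that includes 1. The 26 mature DC-like cells of the live allogeneic library stood at 314 CPM, against 10.2 to 37.1 CPM in the other libraries, but only 5 of them held an Ifit UMI.

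pDC-like cells, the professional producers of type I interferon, held the family at 57.1, 107, 63.5, 22.9 and 24.1 CPM, a live ratio of 1.68 (1.09 to 2.59) and a ratio of 1.87 to saline (1.18 to 2.97). Ifit2 was at 22.3, 85.5, 38.3, 18.7 and 18.6 CPM, 2.23-fold in the live pair (1.32 to 3.76). Ifit3 was at 16.7, 8.02, 9.58, 0 and 1.86 CPM, and Ifit1 was at 12.5, 13.4, 12.0, 4.16 and 3.71 CPM. The single member with at least 20 UMIs, Ifit2, was past 2-fold higher in the live pair, as were 2.67% of genes. Of the 39 live allogeneic pDC-like cells 9 held an Ifit UMI, and the 2 cells with the most held 67.5% of the family UMIs. Ifit2, the member without a higher live allogeneic level in T cell-like cells, was thus the member with one in pDC-like cells. That level rests on few cells, and this difference between classes was not tested.

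cDC1-like cells, which cross-present antigen, held little Ifit RNA in any library, at 21.6 CPM in saline, 9.89 in live allogeneic, 3.04 in live isogeneic, 13.3 in apoptotic allogeneic and 9.62 in apoptotic isogeneic cells. The saline library was highest, and the live allogeneic level was 0.457-fold the saline level (0.217 to 0.879). This rests on few cells, since 2 of the 243 saline cells held 31 of its 59 Ifit UMIs and 1 of the 167 apoptotic allogeneic cells held 24 of its 34. Without the cells of 10 or more Ifit UMIs the saline level was 10.4 CPM, the apoptotic allogeneic level 3.94 CPM and the ratio of live allogeneic to saline 0.956. The live ratio of 3.25 (1.19 to 9.31) rests on 11 and 8 UMIs. Ifit2 held 43, 10, 8, 33 and 14 of these UMIs, and the saline library alone held Ifit1 in this class, with 8 UMIs. These cells had a median of 8890 to 19996 UMIs, more than cDC2-like cells in each library. Natural killer cell-like cells held 18, 2, 26, 6 and 8 Ifit UMIs (43.7, 8.92, 53.6, 21.8 and 23.1 CPM). Their live ratio was 0.166 (0.0191 to 0.665) and their ratio to saline 0.204 (0.0230 to 0.853), from 34 live allogeneic cells, and this was the only class of those compared whose live interval lay below 1. No member reached 20 UMIs in either class in the live pair. Plasma cell-like cells had no Ifit UMI in any library, where 3 UMIs would have been 8.27 to 16.4 CPM.

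**Figure D3:**
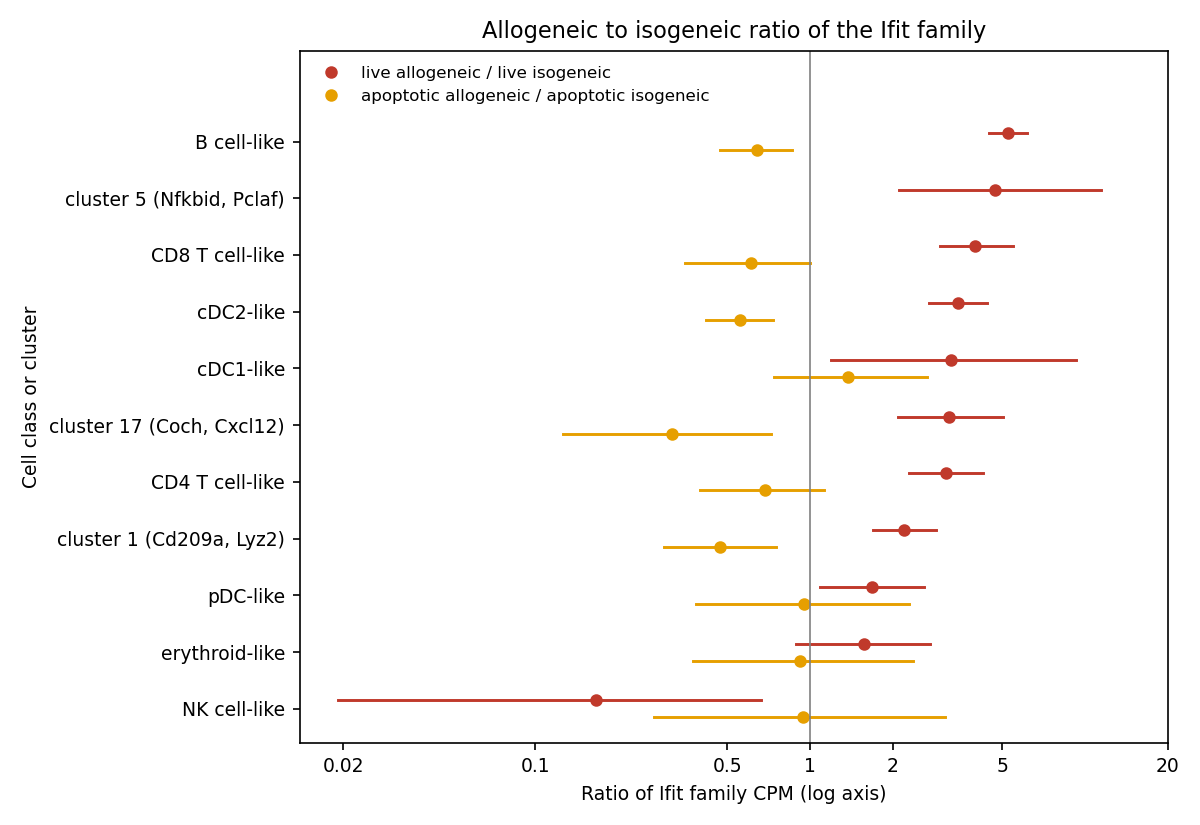
Ratio of the summed Ifit level in the live pair and in the apoptotic pair (allogeneic over isogeneic), by cell class, on a log axis with exact 95% intervals from counting error. The live ratios of all classes shown but natural killer cell-like cells lie above 1, and the apoptotic ratios of cDC2-like and B cell-like cells, 0.556 and 0.639, lie below it.

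The number of cells that held the RNA was read next. In the live allogeneic library 40 of 72 cDC2-like cells held an Ifit UMI at full depth. Of these 40, 26 (65.0%) held 2 or more members, with Ifit3 and Ifit3b counted as 2, against 24.4% to 35.9% in the other libraries. The 4 cells with the most Ifit UMIs held 31.5% of them. Of the 475 live allogeneic B cell-like cells, 149 held an Ifit UMI and 66 held 2 or more members. The top 5% of cells held 54.4% of the UMIs there and 89.1% or more in each other library. In the saline and apoptotic isogeneic libraries the top 5% (51 and 166 cells) took in all 42 and 136 cells with an Ifit UMI. The share thus depends on how many cells held one. Of the 62 live allogeneic CD8 T cell-like cells, 41 held an Ifit UMI, and 28 held 2 or more members. Counts of cells with 2 or more members were read at full depth, highest in the live allogeneic library in these classes. With cells thinned to equal depth, 3 of 7 live allogeneic cDC2-like cells with Ifit3 held another member. The values were 3 of 8 in saline, 1 of 9 in live isogeneic and 1 of 7 in apoptotic isogeneic cells. These are too few cells to order the libraries. In B cell-like cells with Ifit3 the share was 35.0% in live allogeneic and 0% to 50.0% in the other libraries.

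Since depth differed, shares were also read with each cell thinned to 1000 UMIs. At that depth 13.9% of live allogeneic cDC2-like cells held an Ifit UMI (exact interval 6.87 to 24.1), against 4.42% to 7.58% in the other libraries, and the mean over all possible draws was 19.3%. B cell-like cells were at 13.5% (10.5 to 16.9) against 2.19% to 2.49%. CD8 T cell-like cells were at 33.9% (22.3 to 47.0) against 4.36% to 7.28%, and CD4 T cell-like cells at 27.6% (16.7 to 40.9) against 4.08% to 7.19%. The means over all draws were 14.3%, 28.8% and 21.4% in these 3 classes, and at most 2.60%, 5.94% and 7.05% in any other library. In the same library 0 of 61 cDC1-like cells, an interval up to 5.87%, 1 of 49 erythroid-like cells and 1 of 34 natural killer cell-like cells held one after thinning. Their median depths before thinning were 19996, 43640 and 4666 UMIs, against 7676 in cDC2-like cells.

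The interferon pathway was read from gene lists, with each gene compared in the same sums. The lists were chosen with earlier results of these data known, so their counts are descriptions and not independent support. Ligands were nearly unmeasured. None of the 18 type I interferon genes reached 20 UMIs in any contrast, and the libraries held 1, 1, 2, 1 and 1 of their UMIs in all. Ifng, the type II interferon gene, was at 3.25, 2.84, 2.75, 2.19 and 4.94 CPM over all cells, and its level in natural killer cell-like cells was 72.8, 66.9, 66.0, 87 and 127 CPM. The type I ligand UMIs were too few to order the libraries, and Ifng was highest in the apoptotic isogeneic library in both of these sums. Of the 4 receptor and kinase genes Ifnar1, Ifnar2, Jak1 and Tyk2, none was past 2-fold higher in the live pair in cDC2-like or B cell-like cells.

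Of the transcription factors, Stat2 was at 113 against 61.0 CPM in live allogeneic and live isogeneic cDC2-like cells (1.85-fold, 1.33 to 2.56), and Irf9 at 94.3 against 101 CPM (0.936-fold, 0.672 to 1.29). In B cell-like cells Stat2 was past 2-fold higher (2.25-fold, 1.87 to 2.71). Irf7, the factor that amplifies interferon production, was past 2-fold higher in both classes, at 3.21-fold (2.26 to 4.56) and 4.15-fold (3.21 to 5.40). Usp18, which shuts off the type I receptor, was at 57.3 against 48.4 CPM in cDC2-like cells and 4.55-fold higher (3.19 to 6.56) in B cell-like cells. Socs1, another feedback inhibitor, was 7.15-fold higher (4.51 to 11.7) in B cell-like cells.

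Of the antiviral effectors 12 of 33 were past 2-fold higher in cDC2-like cells of the live pair, against 2.59% of all genes. They were led by Ifi27l2a (879 against 393 CPM), the ubiquitin-like modifier Isg15 (327 against 84.6 CPM, 3.87-fold, 3.09 to 4.85), Herc6 (133 against 53.5 CPM), an Isg15 ligase, and Rtp4 (128 against 46.1 CPM). Their median difference was 0.74 on the log2(CPM + 10) scale, beside -0.04 over all genes. In B cell-like cells 17 of 33 were past 2-fold higher, against 1.70% of all genes, with a median of 0.80 beside -0.15. Of the sensors, Zbp1, which detects nucleic acids in Z form, was 4.67-fold higher (3.25 to 6.75) in cDC2-like and 5.19-fold higher (4.35 to 6.22) in B cell-like cells. Interferon-gamma response genes were past 2-fold higher in 10 of 18 cases in cDC2-like cells and in 15 of 20 in B cell-like cells, beside the same 2.59% and 1.70%, among them Ifi47, an immunity-related GTPase gene (5.65-fold, 3.39 to 9.64, and 4.33-fold, 3.68 to 5.09). In CD8 T cell-like cells they were past 2-fold higher in 2 of 18 cases, a share below the 12.8% of all genes, and 10 of 29 antiviral effectors were.

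Over all genes of the type I lists other than the members, 16 of 56 were past 2-fold higher in cDC2-like, 28 of 59 in B cell-like, 16 of 45 in CD4 T cell-like, 15 of 49 in CD8 T cell-like, 10 of 52 in pDC-like, 5 of 48 in cDC1-like and 3 of 38 in natural killer cell-like cells. The percent of all genes past 2-fold higher was, in the same order, 2.59%, 1.70%, 4.03%, 12.8%, 2.67%, 2.55% and 4.84%. Of these classes, cDC1-like and natural killer cell-like cells, which held little Ifit RNA, had the fewest of these genes past 2-fold. Beside the percent of all genes the order differed. The cDC1-like count of 5 of 48 stood further above its 2.55% than the CD8 T cell-like count of 15 of 49 above its 12.8%. Erythroid-like cells, also low in Ifit RNA, were not read for these lists. The cDC1-like and natural killer cell-like classes were not without any of these genes past 2-fold. Ifi27l2a was 3.33-fold higher (2.52 to 4.43) and Zbp1 2.23-fold higher (1.48 to 3.36) in live allogeneic cDC1-like cells, and Isg15 was at 47.7 against 26.6 CPM (1.79-fold, 1.23 to 2.60). In natural killer cell-like cells Ifi27l2a was 2.52-fold higher (1.28 to 5.02), and Isg15 was at 49.1 against 43.3 CPM (1.13-fold, 0.493 to 2.46).

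In the apoptotic pair few other genes of the pathway were past 2-fold. In cDC2-like cells 0 of 55 type I list genes were past 2-fold higher (1.63% of all genes were) and 3 lower in the allogeneic library (1.58% were). These were Rsad2, the viperin gene (9.09 against 28.1 CPM, 0.324-fold, 0.161 to 0.617), Oas3, a synthase that activates RNase L (6.50 against 21.7 CPM, 0.30-fold, 0.129 to 0.639), and the sensor Dhx58 (14.9 against 32.1 CPM, 0.465-fold, 0.266 to 0.796). In B cell-like cells 0 of 59 were past 2-fold higher (0.866% of all genes were) and 3 lower, against 1.94% of all genes (Ifit1bl1, Usp18 and Ifih1). Heat and dissociation stress genes, read as a sign of handling, were past 2-fold higher in 2 of 22 cases in the live pair and 3 of 22 in the apoptotic pair of cDC2-like cells, with Hspa1a and Hspa1b in both. These counts stand beside 2.59% and 1.63% of all genes, and their part in the results was not tested.

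**Figure D4:**
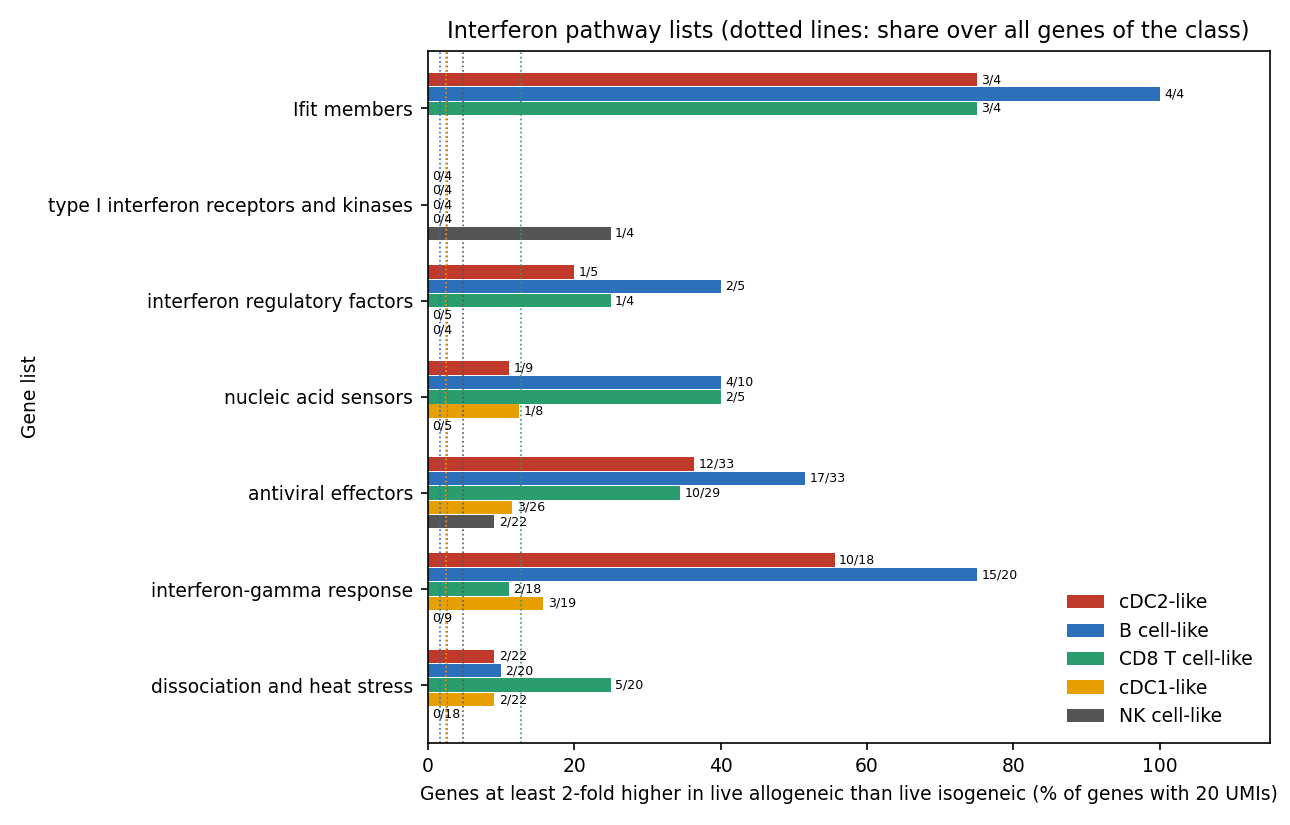
Percent of the genes of each list with at least 20 UMIs that were past 2-fold higher in the live allogeneic than in the live isogeneic library, by cell class (bar colours), with the counts beside the bars, no bar where no gene had 20 UMIs, and dotted lines at the percent over all genes tested in that class. The antiviral effector and interferon-gamma response lists reach 17 of 33 and 15 of 20 genes in B cell-like cells.

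The ISRE-core letters shown above for Ifit1, Ifit3 and Ifit3b were also found before 13 of the 30 antiviral effector genes that had a window (43.3%), against 936 of 27025 genes (3.46%). Isg15 and Rsad2 were among them. They also stood before 11 of 19 interferon-gamma response genes (57.9%) and before 11 of 17 type I ligand genes (64.7%) with a window. None of the 7 sensor genes with a window held a match.

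The genes whose levels followed the family most closely were ranked by Pearson correlation of log2(CPM + 10) over 87 sums of class and library, among 11072 genes with at least 200 UMIs. Among the 10 nearest were Isg15 (r = 0.739), Ifi27l2a (0.725), Slfn8 (0.724), Rtp4 (0.702), Parp14 (0.700), Xaf1 (0.697), Rnf213 (0.693), Slfn5 (0.691) and Oas2 (0.669). Of the 10, 9 were in the interferon lists, which were chosen with earlier results of these data known. The median r over all genes was 0.0274. Without the 11 live allogeneic sums the values of Isg15 and Slfn8 were 0.662 and 0.720. Ifit1bl1 ranked 17, with r = 0.645. Among the members, Ifit3 and Ifit3b were closest (0.877), a pair whose UMIs cannot be split with certainty. Next were Ifit1 with Ifit3 (0.752) and with Ifit3b (0.748). Ifit2 stood further off, at 0.471 with Ifit1, 0.516 with Ifit3 and 0.490 with Ifit3b. The sums share libraries, depth and free RNA, and these correlations are descriptions.

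**Figure D5:**
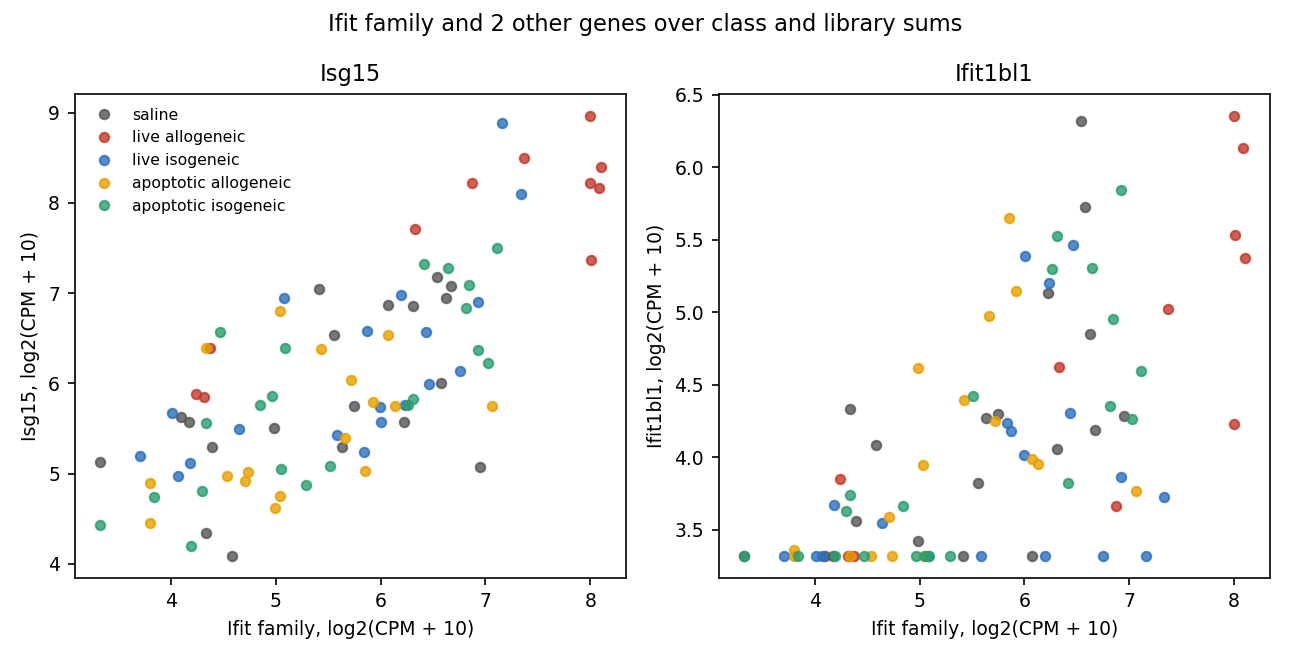
Level of Isg15, the gene ranked closest (r = 0.739, left), and of Ifit1bl1 (r = 0.645, right) against the summed Ifit level in 87 sums of cell class and library, all as log2(CPM + 10), with a colour per library. The live allogeneic sums with the highest Ifit levels lie at the right of both panels, and Ifit1bl1 was at 0 in many of the sums along the lower edge.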

How the data were processed

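The deposited tables hold UMI counts per gene and barcode, made by the authors with Cell Ranger 4.0 on mm10 per the submitters' processing notes. No other step before deposit is given in the sources used here. The gene models were matched to GRCm38 annotation by gene ID. From the counts, barcodes were kept by minimums of 1000 UMIs and 500 genes and a mitochondrial limit of 10%. Doublets were called with Scrublet in scanpy 1.11.5 and removed. It marked under 0.5% of barcodes in 4 libraries and 1.83% in the apoptotic isogeneic library, so an unknown number of doublets remains. Cells were clustered by Leiden (resolution 1, 2000 variable genes, 30 principal components, 15 neighbours) without the Ifit genes and the interferon lists, which gave 31 clusters, and named from marker lists.

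UMIs were summed by class and library and divided by the class total (CPM). Ratios carry exact conditional Poisson intervals and shares exact Clopper-Pearson intervals (95%, scipy 1.17.1). Genes with 20 or more UMIs over both sums counted as past 2-fold at a CPM ratio of 2 or more, or of 0.5 or less. No test was possible with 1 library per group. Ratios were checked on simulated Poisson counts with known changes. Those counts had no spread between cells or libraries, so the check says nothing about such spread. The named genes are every member, for each list up to 4 genes past 2-fold, taken by UMI number, the 10 genes most like the family, and the neighbours on chromosome 19. A gene that this rule names is not reported here. Other genes of the lists are named as context and were chosen after their values were seen. The members, lists and comparisons were chosen with earlier results of these data known. The alternatives tried and their effects are given in the closing section.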

Additional observations from a re-analysis of the deposited data

Results flagged for a closer look

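In several cell classes the family differed between allogeneic and isogeneic cells in opposite directions, depending on whether the infused cells were live or apoptotic. In cDC2-like cells the ratio was 3.45 with live and 0.556 with apoptotic cells. In B cell-like cells it was 5.24 and 0.639, in cluster 1 (led by Cd209a and Lyz2) 2.20 and 0.472, and in cluster 17 (led by Coch and Cxcl12) 3.20 and 0.315. The cluster 17 ratios rest on few cells. There 1 of the 34 live allogeneic cells held 34 of the 83 Ifit UMIs, and the apoptotic libraries held 9 and 20 UMIs. Summed over all cells the ratios were 4.02 and 0.575. Each ratio's counting interval leaves out 1, but these intervals do not cover the spread between cells or between libraries. With 1 library per group the difference between the live and the apoptotic ratio was not tested.

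Barcodes with fewer than 100 UMIs, which are not counted in any cell class, held the family at 106 CPM in the live allogeneic library, above the 39.9 CPM of the saline library.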

How the results depend on the processing

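In cDC2-like cells the live ratio, the apoptotic ratio and the ratio of live allogeneic to saline kept their direction under the alternatives run. Of 63 recomputed values of these ratios, the live allogeneic level and the share of cells, 56 stayed within the counting interval and 7 did not. The ratios of the other libraries to saline were not recomputed. The live ratio of 3.45 became 2.53 at Leiden resolution 2, 1.92 in a single thinning draw to 1000 UMIs, where it rests on few UMIs, and 2.50 as a mean over members with a pseudocount of 10 CPM. The live allogeneic to saline ratio of 2.99 became 4.59 without the top 5% of cells and 2.28 as that mean over members. The share of live allogeneic cDC2-like cells with an Ifit UMI was 55.6% without thinning and 4.17% when 2 UMIs were required. The live ratio ranged from 1.92 to 4.38, the apoptotic ratio from 0.501 to 0.696 and the level from 226 to 305 CPM. Alternatives chosen after seeing the data gave live and apoptotic ratios of 2.89 and 0.528 with cluster 1 added, 3.80 and 0.550 without cluster 29, 3.94 and 0.518 without Ifit2, and 3.37 and 0.501 as a mean over cells.

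For the other classes and single members, 280 values of 27 results were recomputed, of which 239 stayed within the interval. In 11 cases a ratio came to lie on the other side of 1, and in 3 of these the interval of the reported ratio had left out 1. The live ratio of B cell-like cells ranged from 3.03 to 24.7, the latter without the top 5% of cells. In pDC-like cells a mean over members with a pseudocount of 1 CPM gave 0.820 for the live ratio and 0.744 for live allogeneic to saline, and Ifit2 in cDC2-like cells gave 0.962 in a thinning draw. Among ratios whose interval included 1, the thinning draw gave 1.23, 1.14 and 3.59 for the apoptotic ratios of CD4 T cell-like, CD8 T cell-like and pDC-like cells and 2.44 for Ifit2 in the live pair of CD8 T cell-like cells. The apoptotic ratio of pDC-like cells was also 2.25 without the top 5% of cells. The cause was not tested. Taking off free RNA at 10% left the cDC2-like ratios of live allogeneic to live isogeneic and to saline at 3.45 and 3.01. Free RNA could not be subtracted for the apoptotic pair, since the apoptotic allogeneic file has no barcodes under 100 UMIs, and the top 5% of cells could not be left out where they held every Ifit UMI. No paired analysis was possible because the groups share fewer than 2 replicate numbers. The number of cells limits natural killer cell-like values, with 34 cells and 2 Ifit UMIs in the live allogeneic library. Leaving out cDC1-like cells of 10 or more Ifit UMIs was chosen after seeing the data.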
